A study of Rattus norvegicus with 24 samples.

Results

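Cdkn1a encodes p21, an inhibitor of cyclin-dependent kinases. It was followed here as 1 gene (ENSRNOG00000000521) of 32883 listed in the count files of primary rat oligodendrocyte lineage cells, chosen by its identifier and measured in all 24 libraries. The cells were oligodendrocyte precursor cells (OPCs) from the cortices of Sprague Dawley rat pups of postnatal days 0 to 4, purified by shaking them off mixed glial cultures, so each library is a culture of pooled pups and not a tissue. OPC libraries were made after 24 h in proliferation medium. Oligodendrocyte (OL) libraries were made after 24 h in proliferation medium and a further 72 h in differentiation medium. Each stage had 3 groups of 4 libraries: untreated cells, cells given the DMSO vehicle at 0.04%, and cells given 8 µM dolutegravir (DTG), an HIV integrase inhibitor. DTG OLs and DMSO OLs received their compound in both stages. The 4 replicates of each group came from cultures of independent litters, called cultures 1 to 4 below. Libraries of equal replicate number carry a common prefix in their library names in all 6 groups, and were taken as 1 culture. The DMSO share of the DTG wells is not given in the sources used here.

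p21 binds complexes of cyclins with cyclin-dependent kinases and holds them inactive, so that the retinoblastoma family stays bound to E2F and genes of DNA replication and mitosis stay off. It also binds PCNA, the sliding clamp of DNA replication. Its gene is known to be induced by several stress pathways and in cells that leave the cycle, as OPCs do when they become OLs.

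In 22 of the 24 files Cdkn1a lay on chromosome 20 from 6351458 to 6358864 on the + strand (build Rnor_6.0, per the submitters' processing notes). Its 5 exon entries merged to 1950 exonic bases, and 0 other listed genes overlapped it. The files of untreated OPC replicate 3 and untreated OL replicate 3 gave other coordinates for the gene, with 6 exon entries and 2360 exonic bases, and listed 30560 genes. Comparisons with untreated cells were therefore limited to the 21651 identifiers that all files share.

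Gene counts ran from 13241279 to 18499994 per library, and Cdkn1a received 2116 to 7474 of them, so counting error was small beside the spread between cultures. The counts of 92 ERCC spike-in transcripts made up 1.06 to 7.19% of each library. The labelled stages carried their markers as far as these could be matched: the summed level of 3 OL markers (Mbp, Mog and Enpp6) was 112 to 356 CPM (counts scaled to library size) in OPC libraries and 1805 to 11948 CPM in OL libraries. That of the 2 matched OPC markers (Pdgfra and Cspg4) was 562 to 1195 CPM in OPCs and 136 to 378 CPM in OLs. Gene symbols came from the study's supplementary tables, which pair 2107 identifiers with a symbol and list genes that the study itself reported in these libraries. Counts of list members that follow are therefore not independent evidence of a direction or of being called. The shares over all genes given beside them are not a like background, since most of those genes had no symbol to match. Cdkn1b, Cdkn1c, Cdk2 and Cdk4 were not analysed here.

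Cdkn1a was among the more abundant transcripts in every condition, and its level varied widely between cultures. In untreated OPCs it stood at 224, 399, 293 and 460.0 CPM in cultures 1 to 4, after scaling by trimmed mean of M values (TMM). In DMSO OPCs the levels were 195, 443, 311 and 492 CPM. In DTG OPCs they were 206, 289, 331 and 431 CPM. The 3 OPC groups thus covered the same range, and culture 1 was the lowest and culture 4 the highest in each of them.

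In untreated OLs Cdkn1a stood at 150, 316, 289 and 202 CPM in cultures 1 to 4. In DMSO OLs the levels were 160, 259, 314 and 288 CPM. In DTG OLs they were 491, 626, 533 and 394 CPM. Every DTG OL library was above every OL library without the drug, and the OL groups without the drug covered 150 to 316 CPM, against 195 to 492 CPM in OPCs. Culture 1, the lowest in each of the other groups, was not the lowest with DTG in OLs, where culture 4 was.

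**Figure D1:**
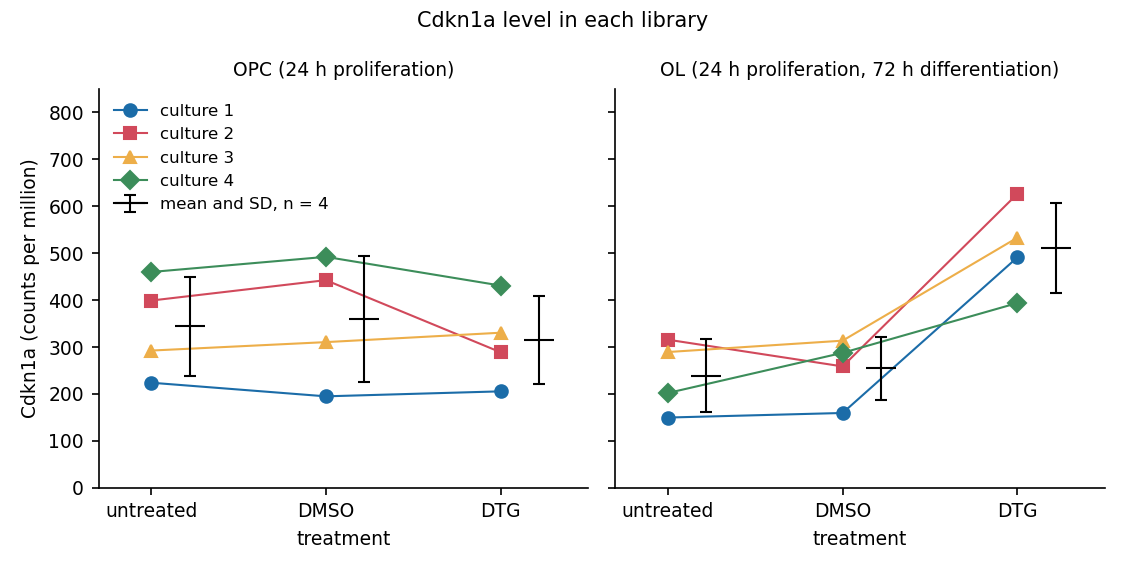
Cdkn1a level in CPM (vertical axis, linear, from 0) by treatment (horizontal axis), in OPCs and in OLs, with 1 point per library marked by culture, lines joining the libraries of a culture, and a black bar for the mean and SD of 4 libraries. The 4 DTG OL libraries sit between 394 and 626 CPM, all above the DMSO OL libraries at 160 to 314 CPM, while the 3 OPC groups overlap.

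The group means were 344 ± 106 CPM in untreated OPCs, 360 ± 134 in DMSO OPCs, 314 ± 93.7 in DTG OPCs, 239 ± 76.9 in untreated OLs, 255 ± 67.4 in DMSO OLs and 511 ± 96.5 in DTG OLs (SD, n = 4 each). The coefficient of variation between cultures was 26.4 to 37.3% in the groups other than DTG OLs, and 18.9% in DTG OLs. Of the total sum of squares of log2 CPM over the 24 libraries, condition took 45.7%, culture 33.0% and the remainder 21.4%. Per exonic length (RPKM), 93.2% of 14046 genes were lower than Cdkn1a in DMSO OLs, 96.8% in DMSO OPCs and 97.2% in DTG OLs.

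In the order of mean log2 CPM, untreated OLs came lowest, followed by DMSO OLs, DTG OPCs, untreated OPCs, DMSO OPCs and DTG OLs. For the 5 pairs of neighbours in this order, the two-sided exact permutation p was 0.8286, 0.371, 0.686, 0.914 and 0.171 from the lowest pair up (Benjamini-Hochberg adjusted 0.857 to 0.914). The test took libraries as independent and did not pair cultures. Its smallest possible p was 0.0286, which becomes 0.143 after adjustment when 1 pair alone reaches it. Thus 1 separated pair alone could not pass. Scaled to the ERCC counts instead of the gene counts, the order was DMSO OLs, untreated OLs, DTG OLs, DMSO OPCs, untreated OPCs and DTG OPCs. On that scale the mean of DTG OLs was 15.2 Cdkn1a counts per 1000 ERCC counts, against means of 19.3 to 23.4 in the OPC groups and 5.37 to 6.86 in the other OL groups. DTG OLs (12.9 to 18.7) and DMSO OPCs (12.5 to 32.7) overlapped there (two-sided exact permutation p 0.543). Untreated OLs and DTG OLs, also neighbours there, differed by 1.19 on the log2 scale, with the smallest p possible in that test (0.0286, adjusted 0.143).

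The comparison of DTG OLs with DMSO OLs asks what the drug did to Cdkn1a in cells exposed through proliferation and differentiation. Within each culture the DTG OL level exceeded the DMSO OL level, by 3.08-fold in culture 1, 2.42-fold in culture 2, 1.70-fold in culture 3 and 1.37-fold in culture 4. All 4 cultures moved the same way, with a wide range in size, and the groups did not overlap. How many other genes had groups that did not overlap was not counted, here or in the comparisons below. By edgeR 1635 of all genes had an unadjusted p under 0.05 here. In the test across 12710 genes Cdkn1a rose by 1.00 on the log2 scale (SE 0.20, 95% interval 0.58 to 1.43), or 2.01-fold (1.49 to 2.70), with an unadjusted p of 0.000204 and an adjusted p of 0.0324 by edgeR's quasi-likelihood test. It passed the thresholds of adjusted p below 0.05 and absolute log2 fold change above 1, which 0.582% of all genes tested passed, 0.37% of them as higher with DTG. The gene lay just inside the fold threshold. Among the 47 genes called higher it ranked 46 by fold change and 8 by CPM in DTG OLs, so it was a modest rise of an abundant transcript.

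The call depended on the fit and on single libraries. It held with the culture as a block (1.02, adjusted p 8.47e-05), with DESeq2 (1.01, adjusted p 0.000537) and with no filter on low counts (1.02, adjusted p 0.0105). Leaving out each of the 8 libraries in turn gave log2 fold changes of 0.84 to 1.11, and the gene was called in 3 of these fits. It was not called without DTG OL replicate 2 (0.90, adjusted p 0.0671), DTG OL replicate 3 (0.98, 0.0827), DMSO OL replicate 1 (0.84, 0.0512), DMSO OL replicate 2 (1.01, 0.12) or DMSO OL replicate 4 (1.08, 0.0701). With all 16 libraries with DMSO or DTG in 1 fit the value was 1.02 and the adjusted p 0.178. Scaled to the ERCC counts it was 1.54 with an adjusted p of 0.278, and since the median of all genes then moved to 0.59, Cdkn1a exceeded that median by 0.95.

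Against untreated OLs, which share the DTG OL libraries with the comparison above, the DTG OL level was 3.28-fold higher in culture 1, 1.98-fold in culture 2, 1.84-fold in culture 3 and 1.95-fold in culture 4. These groups did not overlap either. The fitted log2 fold change was 1.10 (SE 0.24, 95% interval 0.57 to 1.63, adjusted p 0.121), in a comparison in which 0.277% of genes were called. With the culture as a block the value was 1.14 and the adjusted p 0.0318, and DESeq2 gave 1.09 and an adjusted p of 0.00222, so the call depended on the fit. DMSO OLs and untreated OLs differed by 0.05 (SE 0.26, 95% interval -0.52 to 0.62, adjusted p 0.962).

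In OPCs exposed for 24 h, no rise of Cdkn1a was seen with DTG. The log2 ratio of DTG OPC to DMSO OPC in the same culture was 0.08 in culture 1, -0.61 in culture 2, 0.09 in culture 3 and -0.19 in culture 4. Cultures 1 and 3 were thus about level and culture 2 was lower. The fitted value was -0.19 (SE 0.31, 95% interval -0.87 to 0.49, adjusted p 0.907), and its upper limit was below the fitted value in OLs. With ERCC scaling the value turned to 0.26, with the median of all genes at 0.38. By edgeR 0% of 13270 genes were called in this comparison (69 had an unadjusted p under 0.05), and 0 by DESeq2. DMSO OPCs and DTG OPCs differed from untreated OPCs by 0.06 (SE 0.31) and -0.13 (SE 0.28), the latter 0.28 with ERCC scaling.

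The difference between the DTG responses of the stages was tested itself. Within the same culture the OL response minus the OPC response was 1.55 on the log2 scale in culture 1, 1.89 in culture 2, 0.68 in culture 3 and 0.64 in culture 4. It was positive in 4 of 4 cultures. The fitted interaction was 1.22 (SE 0.40, 95% interval 0.38 to 2.06, unadjusted p 0.00675), which ranked 52 by p among 13734 genes and did not pass after adjustment (adjusted p 0.9999). In this fit 0% of genes were called by edgeR (368 had an unadjusted p under 0.05) and 4 by DESeq2.

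**Figure D2:**
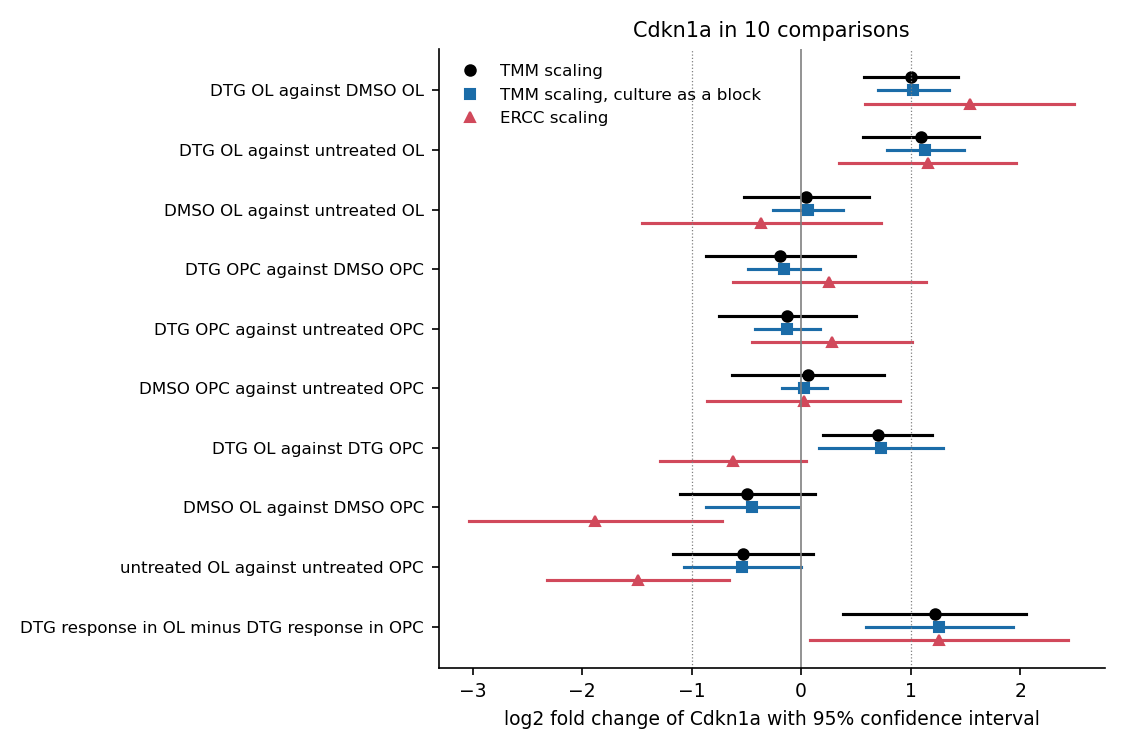
Fitted log2 fold change of Cdkn1a with its 95% interval (horizontal axis) in 10 comparisons (vertical axis), by TMM scaling (circles), TMM scaling with the culture as a block (squares) and ERCC scaling (triangles), with dotted lines at the fold threshold. The TMM interval for DTG OL against DMSO OL runs from 0.58 to 1.43 and that for DTG OPC against DMSO OPC from -0.87 to 0.49, and the ERCC values of the stage comparisons lie furthest from the TMM values.

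The comparison of OLs with OPCs asks how Cdkn1a changed as precursors left the cycle, and no rise of its transcript was measured without the drug. The log2 ratio of DMSO OL to DMSO OPC was -0.29, -0.77, 0.01 and -0.77 in cultures 1 to 4. Culture 3 did not move and the other cultures were lower in OLs. The fitted value was -0.49 (SE 0.28, 95% interval -1.10 to 0.13, adjusted p 0.16) in a comparison in which 32.6% of 13023 genes were called. Leaving out 1 library gave -0.70 to -0.30 and no call, with the lowest adjusted p, 0.0382, without DMSO OPC replicate 1. Untreated OLs against untreated OPCs gave -0.53 (SE 0.29, 95% interval -1.17 to 0.11, adjusted p 0.169, with 24.9% of genes called), with 0 of 4 cultures higher in OLs. Scaled to the ERCC counts these differences were -1.88 (adjusted p 0.00538) and -1.49 (adjusted p 0.0113), both past the thresholds, but the median of all genes then stood at -1.52 and -1.002.

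In the presence of DTG, the OL level was above the OPC level in cultures 1, 2 and 3, by 1.26, 1.12 and 0.69 on the log2 scale, and below it in culture 4, by -0.13. The fitted value was 0.70 (SE 0.23, 95% interval 0.20 to 1.20, adjusted p 0.0187), which passed the test but not the fold threshold, where 39.3% of genes passed both and 29.1% were higher by adjusted p alone. With ERCC scaling it turned to -0.62 (adjusted p 0.0895), with the median of all genes at -1.36. The direction of Cdkn1a between stages under DTG thus depended on whether the gene counts or the spike-in counts were held equal. The spike-in was added to equalised amounts of total RNA, so its scale is per total RNA and not per cell, and in bulk libraries fewer cells of a type and less RNA per cell cannot be told apart.

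The other CDK inhibitors that could be matched fell in differentiation and were not called with DTG. Cdkn2b, which encodes p15, an inhibitor of CDK4 and CDK6, fell by 1.77 (adjusted p 0.000646) from DMSO OPCs to DMSO OLs. Cdkn3, a phosphatase of CDKs that itself peaks in dividing cells, fell by 3.91 (adjusted p 3.1e-07). In that comparison 18.5% of all genes were called lower. In DTG OLs against DMSO OLs Cdkn2b gave 0.14 (adjusted p 0.821) and Cdkn3 gave 0.11 (adjusted p 0.919). Cdkn1a was the member called among the 3 of 8 listed inhibitors that could be matched, where 0.582% of all genes were called. The unmatched inhibitors were not analysed, so this does not set Cdkn1a apart within the family.

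The partners that p21 binds fell in differentiation. Of 8 matched cyclins, CDKs and PCNA, 8 were called lower in DMSO OLs than in DMSO OPCs (median -2.52, all genes -0.12), in a comparison in which 18.5% of genes were called lower. Ccna2, the S phase cyclin A2, fell by 3.91 and Cdk6, a kinase of G1, by 3.49. Ccnd1 (cyclin D1) fell by 3.32, Ccnd2 (cyclin D2) by 3.14 and Pcna by 1.52, each with an adjusted p of at most 0.000282. From DTG OPCs to DTG OLs all 8 were called lower as well, where 22.8% of genes were. With DTG in OLs, 0 of the 8 were called by edgeR or by DESeq2, and the median was -0.04. By edgeR 0.582% of all 12710 genes were called there. An unadjusted p under 0.05 was found for 3 of the 8 (2 higher, 1 lower) and for 1635 of all genes. Ccnd1 gave 0.02 (SE 0.23), Ccnd2 0.66 (SE 0.20, adjusted p 0.163) and Pcna -0.34 (SE 0.13, adjusted p 0.28), the last 0.24 with ERCC scaling. Ccng1 (cyclin G1), which is not on this list, fell by 1.58 (adjusted p 0.00207) in differentiation and gave 0.77 (SE 0.21, adjusted p 0.122) with DTG in OLs.

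The ratio of Cdkn1a to Ccnd1, each per exonic length, needs no scaling between libraries. It was 0.239 to 0.518 in all 11 OPC libraries of the larger group of files. In untreated OLs it was 1.23 to 4.10, in DMSO OLs 1.26 to 4.06 with a mean of 2.71 ± 1.15 (SD, n = 4), and in DTG OLs 3.07 to 7.94 with a mean of 5.51 ± 2.19. Every OL library was thus above every OPC library, while the mean of Ccnd1 itself was 502 RPKM in DMSO OPCs and 49.8 RPKM in DMSO OLs. The DTG OL and DMSO OL ratios overlapped, but within each culture the ratio was higher with DTG: 3.07 against 1.26 in culture 1, 7.94 against 2.85 in culture 2, 6.64 against 4.06 in culture 3 and 4.38 against 2.67 in culture 4. The ratio of Cdkn1a to Pcna was 1.27 to 2.67 in DMSO OLs and 3.57 to 6.78 in DTG OLs, which did not overlap, and 0.413 to 1.70 in DMSO OPCs.

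**Figure D3:**
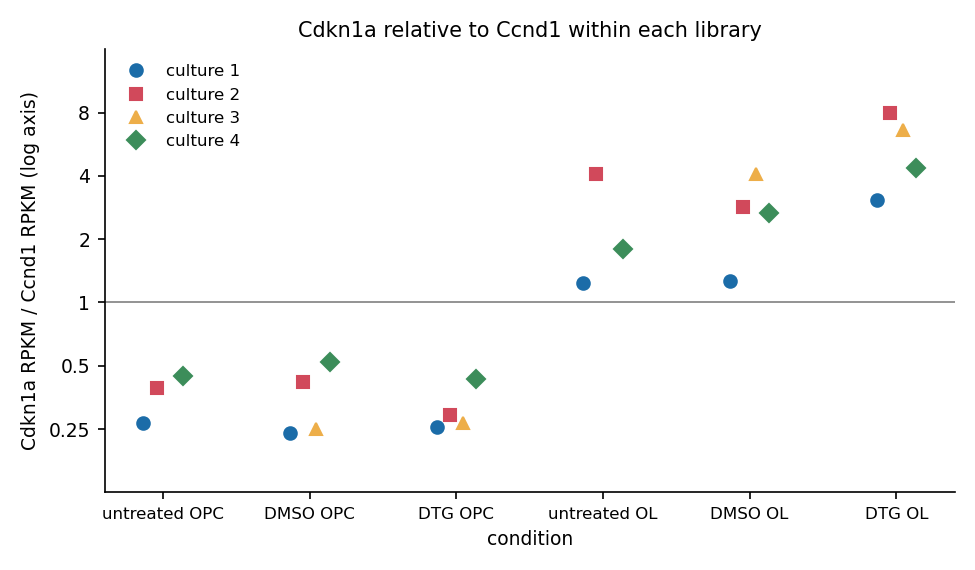
Ratio of Cdkn1a to Ccnd1 in RPKM (vertical axis, log scale) in each of 22 libraries by condition (horizontal axis), with points marked by culture. OPC libraries lie at 0.239 to 0.518, DMSO OLs at 1.26 to 4.06 and DTG OLs at 3.07 to 7.94.

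Downstream of the cyclin-dependent kinases, all 8 matched pocket protein and E2F genes and all 31 matched proliferation genes of the E2F and DREAM programme were called lower in DMSO OLs than in DMSO OPCs, with medians of -2.39 and -2.76 (all genes -0.12, 18.5% called lower). Matching drew on genes that the study had reported in these libraries, so these counts are not independent evidence. Mki67, which encodes the proliferation marker Ki-67, fell by 4.12 and Cenpf, a kinetochore gene, by 4.09. E2f7, a repressor of the family, fell by 4.03, and Rbl1, which encodes the pocket protein p107, fell by 3.76. With DTG in OLs 0 of the 8 and 0 of the 31 were called by edgeR or by DESeq2. On edgeR's adjusted p alone, 1 of the 31 passed as lower but missed the fold threshold, where 112 of all genes passed. By edgeR 0.582% of all genes were called there. An unadjusted p under 0.05 was found for 1 of the 8 (lower) and 9 of the 31 (8 lower, 1 higher). Over all genes 1635 of 12710 had one. The 31 proliferation genes had a median of -0.36 against 0.01 for all genes, with 2 above 0, but with ERCC scaling 23 were above 0 and the median was 0.22 against 0.59 for all genes. Mki67 stood at 7.78, 6.49, 8.19 and 4.63 CPM in DMSO OLs and at 5.11, 4.91, 7.39 and 3.93 CPM in DTG OLs, at a level far below the 44.8 to 238 CPM of OPCs. The OL groups overlapped, and within each of the 4 cultures the DTG OL value was the lower one (log2 fold change -0.35, adjusted p 0.594). With ERCC scaling 8 of 8 cyclin, 8 of 8 E2F and 31 of 31 proliferation genes were called lower in DMSO OLs, where 6696 of all 13023 genes were and their median was -1.52.

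Sesn2, a sestrin that restrains mTORC1 and is induced by ATF4, rose beside Cdkn1a with DTG in OLs. It stood at 77.9, 123, 140.2 and 127 CPM in DMSO OLs of cultures 1 to 4. In DTG OLs it stood at 343, 280.5, 314 and 238 CPM. The groups did not overlap, and Sesn2 rose by 1.33 (SE 0.18, adjusted p 0.0034). In differentiation without the drug it gave -0.13 (adjusted p 0.642, and -1.53 with ERCC scaling). From DTG OPCs to DTG OLs it was called higher, by 1.14 (adjusted p 0.000572), but stood at -0.11 with ERCC scaling.

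The integrated stress response, in which ATF4 drives amino acid and redox genes, rose in the same libraries as Cdkn1a. Of 17 matched members tested, 14 were called higher in DTG OLs than in DMSO OLs, in a comparison in which 0.37% of genes were called higher, with a median of 1.72. With ERCC scaling 9 were called, and with the culture as a block and with DESeq2 16 were. Atf4 itself stood at 150.1, 148, 192 and 182 CPM in DMSO OLs and at 360, 281, 363 and 457 CPM in DTG OLs, a rise of 1.12 (SE 0.16, adjusted p 0.00512). Trib3, a pseudokinase that damps the response, went from 1.13 to 2.35 CPM in DMSO OLs to 16.2 to 52.4 CPM in DTG OLs, a rise of 4.08 (adjusted p 0.00106). Gdf15, a secreted stress factor, rose by 3.16. By level in DTG OLs, Cdkn1a was highest in culture 2, Trib3 and Sesn2 in culture 1 and Atf4 in culture 4.

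In DTG OPCs 0 of these 17 were called by edgeR (1 had an unadjusted p under 0.05) or DESeq2. Of all 13270 genes edgeR called 0% there, and 69 had an unadjusted p under 0.05. Trib3 gave 1.33 (SE 0.46, adjusted p 0.907), Atf4 0.24 (SE 0.16) and Sesn2 0.05 (SE 0.25). Without the drug, 6 of the 17 were called higher and 2 lower in DMSO OLs than in DMSO OPCs, a comparison in which 14.1% of genes were called higher. Atf5, a factor related to ATF4, rose by 2.16 and Atf3, a stress-induced repressor, by 2.00. Mthfd2, a mitochondrial folate enzyme, fell by 1.30 and Cebpg, a partner of ATF4, fell by 1.27. With ERCC scaling the numbers turned to 0 higher and 8 lower of 17, and Atf5 and Atf3 gave 0.80 and 0.60, where 266 of all 13023 genes were called higher and 6696 lower. Atf4 gave 0.18 (adjusted p 0.38) in DMSO OLs against DMSO OPCs and -1.30 with ERCC scaling. From DTG OPCs to DTG OLs 12 of the 17 were called higher, where 16.4% of genes were, and with ERCC scaling 6 were called higher and 2 lower, where 487 of all 13171 genes were called higher and 8039 lower.

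**Figure D4:**
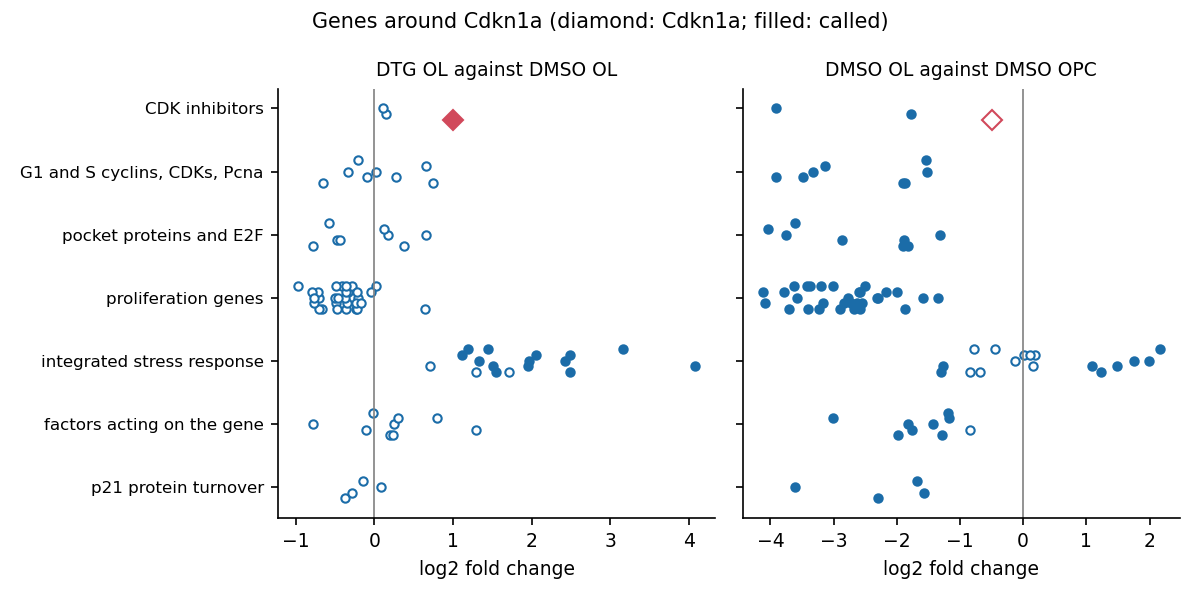
Log2 fold change (horizontal axis) of each matched list member, by list (vertical axis), in DTG OL against DMSO OL and in DMSO OL against DMSO OPC, with Cdkn1a as a diamond and called genes filled. With DTG 14 of 17 integrated stress response genes are filled and 0 of 31 proliferation genes are, where 0.582% of all genes were called. In differentiation 31 of 31 proliferation genes are filled, all below 0, where 32.6% of all genes were called.

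Of the listed regulators of the Cdkn1a gene or its protein, 9 of 24 transcription factors and 4 of 9 turnover genes could be matched. Of the 9 factors, 8 were called lower in DMSO OLs than in DMSO OPCs (median -1.43, all genes -0.12, 18.5% called lower), among them Egr1, an immediate early factor, which fell by 3.02, and Cebpa, a factor that promotes cell cycle exit, by 1.97. With DTG in OLs 0 of the 9 were called by edgeR, where 0.582% of all genes were. An unadjusted p under 0.05 was found for 3 of the 9 (2 higher, 1 lower) and for 1635 of all 12710 genes. DESeq2 and the fit with the culture as a block called Cebpb, named here after its value was seen, at 1.29. Of 4 genes whose products turn over p21 protein, 4 were called lower in differentiation, beside 18.5% of all genes. Dtl, the PCNA-dependent ligase receptor, fell by 3.61, Cdc20, an activator of the anaphase-promoting complex, by 2.30 and Skp2, the F-box protein that marks p21 for degradation, by 1.68. Skp2 stood at 16.4 to 23.8 CPM in DMSO OLs and 14.4 to 21.5 CPM in DTG OLs, groups that overlapped. With DTG 0 of the 4 were called by edgeR (0 had an unadjusted p under 0.05) or DESeq2, beside 0.582% of all genes by edgeR.

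Other measures moved with the rise of Cdkn1a in DTG OLs, and their part in it was not tested. The summed level of the 3 OL markers was 4535 to 11948 CPM in DMSO OLs and 1805 to 4556 CPM in DTG OLs, and Mog was called lower (-1.01, adjusted p 0.0116, and -0.44 with ERCC scaling, not called). The summed OPC markers were 176 to 351 CPM in DMSO OLs and 136 to 324 CPM in DTG OLs. The share of gene counts from the mitochondrial chromosome was 2.04 to 2.55% in DMSO OLs and 3.96 to 5.70% in DTG OLs. In OPCs this share was 3.12 to 5.72% with DTG and 2.01 to 4.52% with DMSO, ranges that overlapped. With the mitochondrial genes left out of the scaling, the Cdkn1a difference in OLs was 1.00 (adjusted p 0.0353). Of markers of other cells, 5 of 8 neuronal genes summed to 80.0 to 113 CPM in DMSO OLs and 87.9 to 127 CPM in DTG OLs, and Sox9, the matched astrocyte gene of 8, was at 78.3 to 107 and 98.9 to 137 CPM. Cd68, the matched microglial gene of 10, was at or below 0.636 CPM in both.

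The genes whose log2 CPM ran most like Cdkn1a over the 22 libraries of the larger group of files were sought among 11458 genes. Pearson's r of the 5 most similar was 0.90, 0.90, 0.90, 0.88 and 0.87. The fifth was Sesn2, with r of 0.95 within the 11 OL libraries and 0.89 within the 11 OPC libraries, and the other 4 identifiers are paired with no symbol. The 3 least similar, also unnamed, had r of -0.80, -0.79 and -0.78. These correlations describe libraries that share 4 cultures, and they carry no test. Within OL libraries Cdkn1a also had r of 0.65 with the mitochondrial share and -0.27 with the gene count total, and within OPC libraries 0.48 with the ERCC share.

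Within the 11 OPC libraries the gene ran opposite to proliferation. All 31 proliferation genes had a negative r with Cdkn1a (median -0.51), where 48.2% of the 11458 genes did (median 0.05), and 8 of 8 pocket protein and E2F genes did (median -0.85). Mki67 stood at 184, 75.8, 162 and 53.6 CPM in DMSO OPCs of cultures 1 to 4, whose Cdkn1a levels were 195, 443, 311 and 492 CPM, so cultures rich in one were poor in the other. Skp2 was highest in culture 1 of DMSO OPCs, with 94.4 CPM against 49.0 to 54.3 CPM in the other cultures. For the proliferation genes this pattern lay between cultures: after the mean of each culture was removed, 12 of the 31 had a negative r and their median was 0.36, against 0.22 for all genes. Of the 8 pocket protein and E2F genes, 6 were still negative then, with a median of -0.52. With culture means kept, 16 integrated stress response genes had a median r of -0.22 in OPC libraries, and 9 of them were negative. Within OL libraries, the same 16 had a median r of 0.85 and 0 of them a negative one. Over all 11458 genes the median there was -0.02, and 5931 were negative. These libraries include the DTG group, in which Cdkn1a and most genes of this list were called higher. The r is therefore not separate from that difference between groups.

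**Figure D5:**
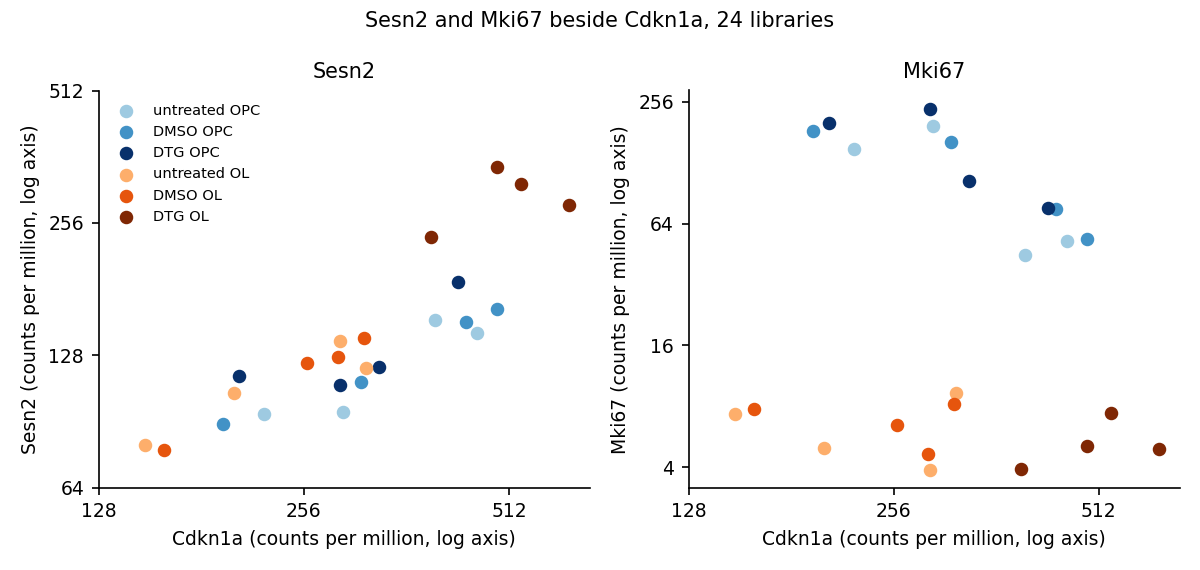
Cdkn1a in CPM (horizontal axes, log scale) against Sesn2 and against Mki67 in CPM (vertical axes, log scale), with 1 point for each of 24 libraries coloured by condition. The DTG OL libraries hold the highest Sesn2 levels, 238 to 343 CPM, and among OPC libraries those with more Cdkn1a have less Mki67.

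The genes around Cdkn1a were not called with DTG in OLs. In that comparison 0.582% of all 12710 genes were called, so this does not set them apart from most genes. The 3 nearest tested genes on either side lie 53244 to 131521 bases before it and 60168 to 186218 bases after it. Their log2 fold changes in DTG OLs against DMSO OLs were -0.87 to -0.18 with TMM scaling, each with an adjusted p of at least 0.145. The nearest, Srsf3, a splicing factor, gave -0.23 (adjusted p 0.591) with DTG in OLs.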

How the data were processed

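Poly(A)-selected RNA of 24 cultures of rat OPCs and OLs was sequenced, and the authors deposited a table of counts per gene for each library, made with bcl2fastq 2.20, STAR 2.5.2b and featureCounts of Subread 1.5.2 per the submitters' processing notes. The deposited counts are whole numbers and not normalized. ERCC rows were kept out of library totals. Counts were tested with edgeR 4.0.16 in R 4.3.3 (TMM scaling, filterByExpr, quasi-likelihood test, the libraries of each comparison alone), with Benjamini-Hochberg adjustment over all genes tested. Calls needed both an adjusted p below 0.05 and a log2 fold change above 1 in size. CPM and RPKM values were computed from the counts, with a prior count of 2 on the log2 scale. Levels of neighbouring conditions were compared by a two-sided exact permutation test that took libraries as independent. The functions were tested on simulated data.

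Gene counts were 13241279 to 18499994 per library, and the spread between cultures, not this depth, limited the precision for Cdkn1a. Group and replicate came from the sample titles. In the study's methods each replicate is a culture of its own litter, and library names in the labels carry a common prefix for equal numbers in all 6 groups, so equal numbers pair libraries. Deviations from the group means over 14046 genes correlated at 0.36, 0.36, 0.30 and 0.03 between DMSO OLs and DTG OLs and at 0.64, -0.07, 0.52 and 0.79 between DMSO OPCs and DTG OPCs for cultures 1 to 4. Across stages they were 0.35, 0.033, 0.088 and 0.44 between DMSO OPCs and DMSO OLs and 0.30, -0.034, 0.083 and -0.29 between DTG OPCs and DTG OLs. Alternatives were DESeq2 1.42.0, its size factors, TMM without mitochondrial genes, ERCC scaling, no filter, no fold threshold, the culture as a block, more libraries in 1 fit and leaving out each library.

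The gene and the lists were chosen with earlier results of these data known. Genes named were Cdkn1a, 8 fixed companions (Ccnd1, Ccnd2, Pcna, Ccng1, Atf4, Trib3, Mki67 and Skp2), up to 2 called genes of the largest rise and 2 of the largest fall per list and comparison, 3 neighbours on each side and the genes of most and least similar pattern. Markers of vascular cells had 0 of 8 members matched. Some genes and lists are not reported here.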

Additional observations from a re-analysis of the deposited data

Results flagged for a closer look

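No library stood apart for Cdkn1a in any of the 6 conditions. Of 84 groups of 4 libraries tested for 14 genes, Cdkn1a among them, 10 held a library whose gap to the nearest other exceeded Dixon's 95% critical value as a share of the group's range, where chance flags about 1 in 20 groups. In OPCs, Atf4 was 117 CPM in DMSO replicate 4 against 157 to 161 CPM in the others, and Trib3 in the same library was 1.18 CPM against 0.390 to 0.496 CPM. Eda2r, a receptor of the TNF family not described above, was 35.3 CPM in untreated OPC replicate 3, which was counted on other gene coordinates, against 4.59 to 6.26 CPM. Culture 3 was also the highest for Eda2r in DMSO OPCs, not counted on those coordinates, at 17.3 CPM against 3.38 to 7.23 CPM. In DTG OPCs culture 2 was the highest, at 22.3 CPM, followed by culture 3 at 16.6 CPM. Pcna was 269 CPM in untreated OPC replicate 1 against 182 to 194 CPM, and Skp2 was 94.4 CPM in DMSO OPC replicate 1 against 49.0 to 54.3 CPM, both from culture 1, in which Cdkn1a was lowest. Plk2, a polo-like kinase also not described above, was 53.7 CPM in untreated OPC replicate 2 against 81.5 to 83.8 CPM, and 66.5 CPM in DTG OPC replicate 3 against 81.9 to 84.4 CPM. Sesn2 was 188 CPM in DTG OPC replicate 4 against 110 to 121 CPM, in the DTG OPC library with the highest Cdkn1a level. In OLs, Ccnd1 was 318 CPM in DTG replicate 1 against 157 to 179 CPM, and Pcna was 64.2 CPM in DMSO replicate 4 against 74.7 to 76.3 CPM.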

How the results depend on the processing

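Over 10 comparisons and the order of levels, 176 alternative values of Cdkn1a were computed. Of these, 150 kept the direction and the side of the thresholds, 7 lost the call, 5 gained it and 14 turned in sign. For the order of levels, only the number of neighbouring pairs with an adjusted p under 0.05 was scored, which was 0 in every setting. Those alternatives count among the 150, although the order itself changed with ERCC scaling. Without replicate 3 the smallest possible permutation p was 0.1, so no pair could pass there. Scaling to the ERCC counts changed most: it ended the call in DTG OL against DMSO OL (1.54, adjusted p 0.278), gave calls in DMSO OL against DMSO OPC (-1.88) and untreated OL against untreated OPC (-1.49), and reversed DTG OPC against DMSO OPC (0.26), DTG OL against DTG OPC (-0.62), DMSO OL against untreated OL (-0.36) and DTG OPC against untreated OPC (0.28). Fitting 16 libraries together ended the call in DTG OL against DMSO OL (1.02). A call appeared in DTG OL against DTG OPC with no fold threshold (0.70), and in DTG OL against untreated OL with DESeq2 (1.09) and with the culture as a replicate block (1.14). The block changed no other call of Cdkn1a. The cause was not tested. Leaving out 1 library gave 0.84 to 1.11 in DTG OL against DMSO OL, -0.39 to 0.0026 in DTG OPC against DMSO OPC, -0.12 to 0.23 in DMSO OL against untreated OL, -0.12 to 0.27 in DMSO OPC against untreated OPC, -0.32 to 0.055 in DTG OPC against untreated OPC, and -0.70 to -0.30 in DMSO OL against DMSO OPC.

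Genes called in DTG OL against DMSO OL numbered 74, against 173 with the block, 129 with DESeq2, 112 with no fold threshold, 49 with 16 libraries in 1 fit, 19 with ERCC scaling and 28 without DMSO OL replicate 2. In DTG OL against untreated OL they numbered 33, against 107 with the block, 106 with DESeq2, 53 with all 24 libraries in 1 fit and 10 without replicate 3 in either group, and 5 to 18 without 1 of 7 libraries (DTG OL replicates 1 to 4 and untreated OL replicates 1, 2 and 4). ERCC scaling gave 6962 in DMSO OL against DMSO OPC (4245 with TMM), 8526 in DTG OL against DTG OPC (5170) and 63 in DMSO OL against untreated OL (0). With no fold threshold these stage comparisons gave 6941 and 8255, and untreated OL against untreated OPC 4552 (3030).

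With 4 cultures per group whose Cdkn1a levels differed widely, the interval of DTG OPC against DMSO OPC ran from -0.87 to 0.49. With the culture as a block the value was -0.15 and the interval -0.48 to 0.17. Changes within that interval remain compatible with these data. Counting depth was not the limit, at 2116 or more Cdkn1a counts per library.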
